A study of Mus musculus with 13 samples.

Results

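A set of 9 genes of proximal T cell receptor (TCR) signalling, Themis, Lck, Zap70, Lat, Fyn, Prkcq, Skap1, Cd5 and Cd6, was followed through mouse thymocyte development in the deposited Parse libraries. They were chosen by gene name, and each of the 9 names occurred once among the 57010 genes listed. The study compared kits for single-cell RNA sequencing on thymus, and the Parse kits used here label RNA in fixed cells by split-pool barcoding. RNA is counted by unique molecular identifiers (UMIs), and 1 UMI is not taken here as 1 whole transcript. The Parse Mini library held 20085 cells of 4 thymic samples, and the Parse WT library held 128624 cells of 20 samples, of which 4 were thymic. Each kit received thymic lobes of 2 untreated young (2 months) female C57BL/6N mice, with 2 samples per mouse. Lobes of 1 mouse are not independent, and the p-values below treat them as separate samples. In the main experiment the study coded mice by letter and lobes by number. The Mini names (1-A, 1-B, 2-A and 2-B) may follow that code, but the labels do not say so, and the WT names carry no letter, so no fit by mouse was made. The 16 other Parse WT samples, which the study calls non-thymic, came from a library with shared labels. These labels were thymus and spleen, control and chronic stress, young and adult mice. The single samples are named CVS_C, CVS_S or YD_C with a number, codes that the labels used do not explain. They are therefore given by range and median over all named groups together, without a test.

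When a TCR binds peptide and MHC, Lck, which is carried by the CD4 and CD8 coreceptors, phosphorylates the CD3 and zeta chains, and Zap70 docks there and phosphorylates the scaffold Lat. Fyn is the other Src family kinase of T cells, Prkcq (PKC theta) relays the signal towards NF-kappa B, and Skap1 links it to integrin adhesion. Themis is a thymocyte-enriched adaptor needed for positive selection, and the surface receptors CD5 and CD6 tune the strength of the signal. CD5 on the cell surface is widely used as a gauge of TCR signal strength in thymocytes. Double-negative (DN) thymocytes signal through the pre-TCR, double-positive cells that rearrange the TCR alpha locus express the recombinase genes Rag1 and Rag2, positively selected cells express Tox, and mature cells acquire genes for survival and egress.

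All 9 genes were found by their identifiers in GENCODE M21 on GRCm38, the assembly that mm10 denotes, and all are protein coding. Cd5 (chr19:10717116-10739002) and Cd6 (chr19:10789341-10830058) lie 50.3 kb apart on the minus strand. The others are Themis (chr10:28668360-28883818), Lck (chr4:129548344-129573641), Zap70 (chr1:36761798-36782818), Lat (chr7:126363824-126369570), Fyn (chr10:39368855-39565381), Prkcq (chr2:11172108-11301222) and Skap1 (chr11:96464593-96759130). The bases before the first start of Themis, Lck and Cd5 are shown because Themis and Lck fell and Cd5 rose at the Tox-high step described below. The sequences are from RefSeq on GRCm38.p6, read 5′ to 3′ on the gene's strand and end before the gene in GENCODE, and capitals mark the letters CANNTG (an E-box, which reads the same way on both strands).

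Themis, chr10:28668110-28668359 (plus strand): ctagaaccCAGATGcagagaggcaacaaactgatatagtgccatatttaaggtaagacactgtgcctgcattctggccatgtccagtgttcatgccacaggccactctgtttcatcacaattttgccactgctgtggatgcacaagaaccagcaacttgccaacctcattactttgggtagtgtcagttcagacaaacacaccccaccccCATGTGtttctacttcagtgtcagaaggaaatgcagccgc
Lck, chr4:129573642-129573891 (minus strand): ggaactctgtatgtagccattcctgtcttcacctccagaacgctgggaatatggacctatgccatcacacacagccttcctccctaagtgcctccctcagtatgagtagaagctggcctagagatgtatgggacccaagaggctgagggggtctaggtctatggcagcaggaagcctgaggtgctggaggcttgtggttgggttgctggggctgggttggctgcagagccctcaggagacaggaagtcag
Cd5, chr19:10739003-10739224 (minus strand): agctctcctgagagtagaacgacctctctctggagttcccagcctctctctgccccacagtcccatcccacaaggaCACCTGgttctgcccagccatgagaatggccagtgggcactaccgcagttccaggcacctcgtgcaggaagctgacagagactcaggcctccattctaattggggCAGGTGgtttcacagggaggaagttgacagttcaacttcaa

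The Themis and Cd5 windows each held 2 E-boxes and the Lck window held 0. The bases before a later start of Themis and of Lck, not shown, each held 1 E-box. The counts therefore depend on the start chosen. Over the 250 bases before each of 32851 starts in the same table, 66.2% held at least 1. The letters TGTGGT, searched on both strands, occurred once in the Lck window, not before its later start, and in 14.0% of all windows. CTTTGA, searched on both strands, was in none of the 3 windows and in 13.8% of all. Of the 9 genes, 7 had a window in the table, and Cd6 and Skap1 had none.

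Cells were placed in classes by UMIs of markers that include none of the 9 genes. DN cells had at least 2 UMIs of Il2ra and at most 1 of Cd4, Cd8a and Cd8b1 together. Cycling cells had at least 3 UMIs of Mki67 and Top2a, Rag-high cells at least 2 of Rag1 and Rag2 and 1 of Cd4, Cd8a and Cd8b1 together, Tox-high cells at least 4 of Tox, and mature cells at least 3 of a set of maturation genes, among them S1pr1 and Klf2. Each class but DN was also limited in UMIs of the markers that define the others. The DN rule limited Mki67, Top2a, Foxp3 and Ctla4 but not Rag1, Rag2, Tox or the maturation genes. All 5 classes allowed at most 1 UMI of Cd79a, Cd79b, Ms4a1, Ighm and Bank1 together. The same limit held for Lyz2, Csf1r, Itgax and Cd74 together. Of the thymic cells, 58642 held 500 to 25000 UMIs with no more than 15% from mitochondrial genes, and 17331 of these (29.6%) met 1 rule. They were 136 DN, 1757 cycling, 10493 Rag-high, 4580 Tox-high and 365 mature cells. UMIs were summed per tissue sample and class with at least 10 cells, which gave 8 samples for every class but DN, which had 5 (WT 2, WT 3, WT 4, Mini 1-A and Mini 2-A). Levels are CPM, UMI counts scaled to a common library total with ribosomal RNA left out. Whole thymic samples held 28057164 to 124106974 UMIs, and the median cell of a class held 1474 to 4072.5 UMIs in a sample. Of markers outside the rules, Cdk1 (median 131 CPM) marked the cycling class, Itm2a (181 CPM) the Tox-high class and Ms4a4b (841 CPM) the mature class. The DN class had the highest Ptcra (29.1 CPM) and Hes1 (73.1 CPM). Its Arpp21 (5859 CPM) and Dntt (609 CPM), checked as Rag-high markers, were close to the Rag-high medians of 6601 and 826 CPM. Whether these DN values come from DN cells themselves or from double-positive cells or their RNA was not tested. Myeloid, erythroid and NK markers (Lyz2, Csf1r, Hbb-bs, Ncr1 and Klrb1c) had medians of at most 1.04 CPM in all 5 classes. Of these, Lyz2 and Csf1r are limited by every class rule, so their low level is no check of the classes.

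The 9 genes did not move together. Themis rose to the Rag-high class and then fell at both later steps, Cd5 and Cd6 peaked in the Tox-high class, and Fyn and Prkcq rose at the Tox-high step and had no called change after it. Lck and Lat had their highest medians in Rag-high cells and Skap1 in Tox-high cells. The Zap70 medians of Tox-high and mature cells (241 and 243 CPM) were close, and their ranges overlapped. The plot of levels by class shows these courses per sample.

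**Figure D1:**
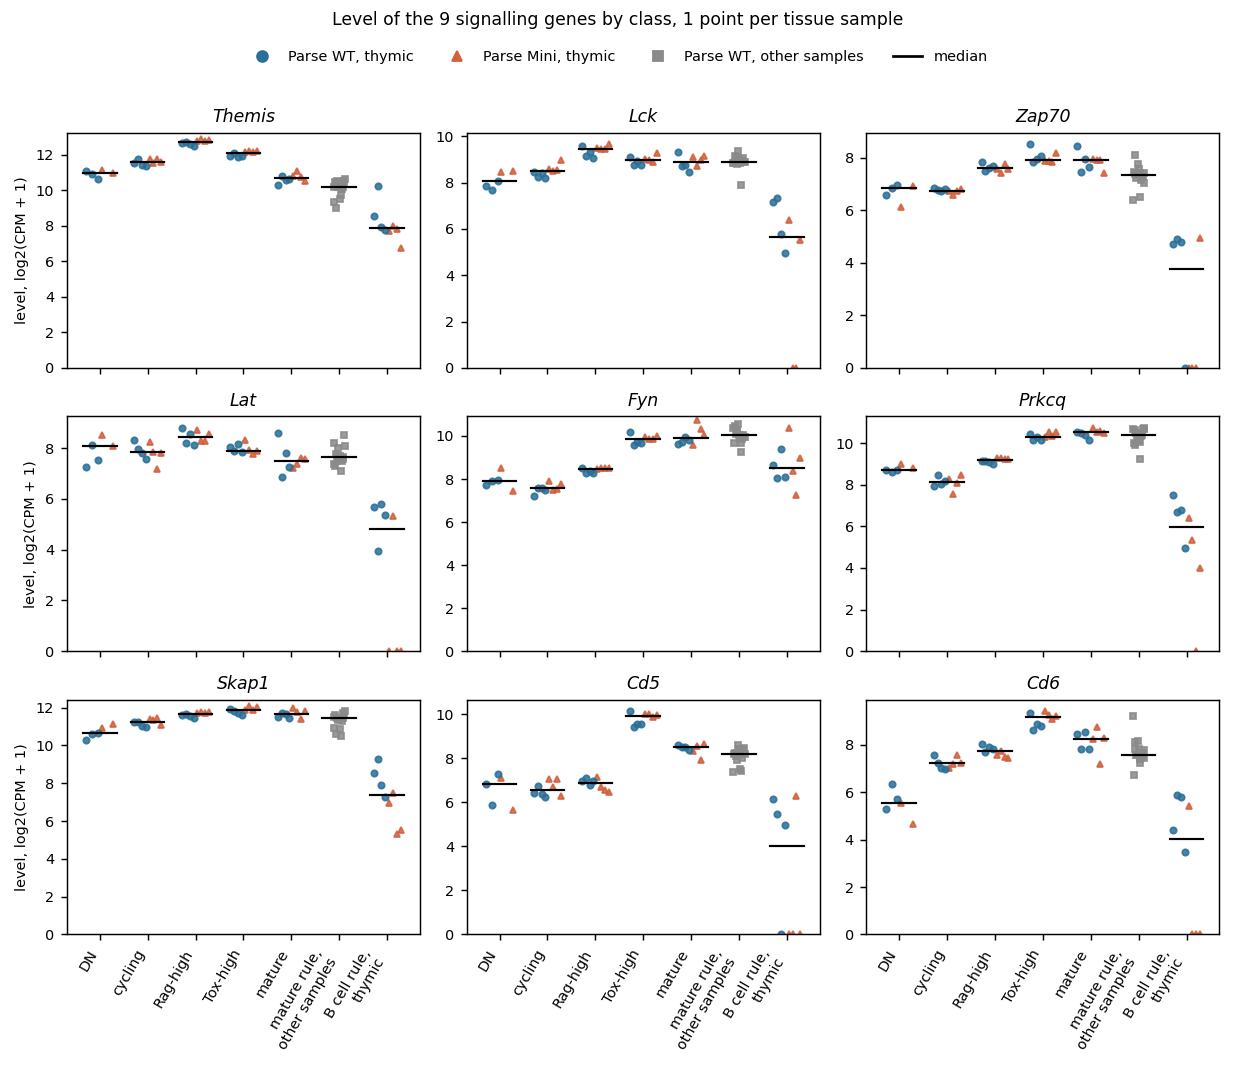
Level of each gene, as log2(CPM + 1), by class, with 1 point per tissue sample (circles Parse WT, triangles Parse Mini, squares the other Parse WT samples) and a bar at the median. Themis is highest in Rag-high cells, Cd5 and Cd6 in Tox-high cells, and Fyn and Prkcq stay high from the Tox-high class on. The B cell class at the right is taken as the background for all but Fyn, which B cells express. Whether some of these B cells express Cd5 was not tested.

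Themis changed at all 4 steps. In the 5 DN sums it stood at 1602, 1953, 2046, 2198 and 2304 CPM. In cycling cells it was 2682 to 3548 CPM (median 3071), in Rag-high cells 5706 to 7731 (median 6907), in Tox-high cells 3718 to 4720 (median 4485) and in mature cells 1278 to 2201 (median 1634). The ranges of neighbouring classes in development did not overlap at any of the 4 steps. Themis rose 1.75-fold from DN to cycling cells (log2 fold change 0.81, SE 0.09, adjusted p = 1.67e-15) and 2.28-fold from cycling to Rag-high cells (1.19, SE 0.05, adjusted p = 1.51e-49). It fell by 0.73 (SE 0.05) on the log2 scale from Rag-high to Tox-high cells (adjusted p = 3.48e-28) and by 1.46 (SE 0.07) from there to mature cells (adjusted p = 4.11e-47). DN and mature cells, the 2 lowest classes, overlapped in range.

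Of the 4 kinases, Lck fell and the others rose at the Tox-high step. Lck, the coreceptor-bound kinase, was at 207 to 365 CPM in DN cells (median 269), 289 to 507 in cycling cells (median 357), 528 to 802 in Rag-high cells (median 688), 428 to 623 in Tox-high cells (median 496) and 350 to 646 in mature cells (median 468). It rose 1.93-fold into the Rag-high class (log2 fold change 0.95, SE 0.06, adjusted p = 2.51e-35) and fell by 0.49 (SE 0.05) into the Tox-high class (adjusted p = 2.50e-17), lower in 8 of 8 samples although the ranges overlapped. Its step to mature cells was not called (-0.17, SE 0.09, adjusted p = 0.16, lower in 5 of 8 samples), but without Mini 2-A it was (-0.25, adjusted p = 0.0496).

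Fyn rose where Lck fell. It stood at 171 to 369 CPM in DN cells (median 241), 149 to 240 in cycling cells (median 188), 310 to 363 in Rag-high cells (median 357), 761 to 1161 in Tox-high cells (median 930) and 767 to 1700 in mature cells (median 944). Cycling, Rag-high and Tox-high cells did not overlap in range. Fyn rose 1.77-fold into the Rag-high class (log2 fold change 0.83, SE 0.08, adjusted p = 1.79e-17) and 2.58-fold into the Tox-high class (1.37, SE 0.06, adjusted p = 1.61e-41). Between Tox-high and mature cells the difference was 0.07 (SE 0.08, adjusted p = 0.611), and by CPM 6 of 8 samples were higher in mature cells.

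Prkcq rose at the same steps as Fyn. Its levels were 391, 417, 422, 438 and 507 CPM in the DN sums, 185 to 348 in cycling cells (median 282), 504 to 622 in Rag-high cells (median 579), 1130 to 1484 in Tox-high cells (median 1266) and 1137 to 1682 in mature cells (median 1454). It was lower in cycling than in DN cells in 5 of 5 samples (fell by 0.42, SE 0.15, adjusted p = 0.0237), a call lost in 11 of 23 alternatives. Prkcq then rose 2.02-fold into the Rag-high class (log2 fold change 1.01, SE 0.07, adjusted p = 2.20e-32) and 2.14-fold into the Tox-high class (1.10, SE 0.05, adjusted p = 6.29e-47), with no overlap at either step. The step to mature cells was not called (0.03, SE 0.07, adjusted p = 0.826), although by CPM 7 of 8 samples were higher in mature cells.

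Zap70, the kinase recruited to phosphorylated CD3 and zeta chains, rose at the Rag-high and Tox-high steps. It was at 69.1 to 124 CPM in DN cells (median 115), 96.2 to 115 in cycling cells (median 107), 173 to 229 in Rag-high cells (median 194), 229 to 366 in Tox-high cells (median 241) and 172 to 350 in mature cells (median 243). The rise into the Rag-high class was 1.85-fold (log2 fold change 0.89, SE 0.08, adjusted p = 7.71e-21) and that into the Tox-high class 1.26-fold (0.33, SE 0.06, adjusted p = 1.88e-07), both in 8 of 8 samples without overlap. From Tox-high to mature cells 4 samples were higher and 4 lower, and the change was not called (-0.29, SE 0.12, adjusted p = 0.0715), but 7 of 23 alternatives called Zap70 lower (lowest adjusted p = 0.00417, with strict thresholds), among them those without Mini 1-A (0.0425) or Mini 2-A (0.0228).

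The adaptors Lat and Skap1 moved in steps of at most 1.54-fold where called. Lat, the scaffold that Zap70 phosphorylates, had medians of 268 CPM in DN, 228 in cycling, 342 in Rag-high, 239 in Tox-high and 177 in mature cells, and neighbouring classes overlapped throughout. Lat rose 1.54-fold into the Rag-high class (log2 fold change 0.62, SE 0.07, adjusted p = 1.79e-15, 8 of 8 samples). It fell by 0.52 (SE 0.06) into the Tox-high class (adjusted p = 3.42e-15, 8 of 8 samples) and by 0.46 (SE 0.13) into mature cells (adjusted p = 0.00497, 7 of 8 samples). The last call was lost in 5 of 23 alternatives, with adjusted p from 0.0528 to 0.0831 there.

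Skap1 stood at 1232 CPM or more in every thymic sum of the 5 classes. Its medians were 1595 CPM in DN, 2394 in cycling, 3257 in Rag-high, 3787 in Tox-high and 3283 in mature cells. It rose 1.53-fold from DN to cycling cells (log2 fold change 0.62, SE 0.09, adjusted p = 4.73e-09, 5 of 5 samples) and 1.41-fold into the Rag-high class (0.50, SE 0.06, adjusted p = 3.33e-15, 8 of 8 samples). Its rise into the Tox-high class was 1.12-fold (0.16, SE 0.05, adjusted p = 0.00965, 8 of 8 samples), and it fell by 0.32 (SE 0.06) into mature cells (adjusted p = 1.24e-05, 7 of 8 samples). The Tox-high call was lost in 3 of 23 alternatives, among them the fit without the tissue sample as a block (adjusted p = 0.117).

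Cd5 had the largest single step of the 9 genes. In DN cells it stood at 48.7, 57.4, 114, 138 and 153 CPM, in cycling cells at 75.4 to 133 (median 94.8) and in Rag-high cells at 86.4 to 140 (median 117), and these 3 classes overlapped. In Tox-high cells it was 695 to 1137 CPM (median 981), and in mature cells 243 to 405 (median 362). The change from cycling to Rag-high cells was not called (0.27, SE 0.15, adjusted p = 0.105, higher in 6 of 8 samples), while 4 of 23 alternatives called it higher, among them Parse WT alone (0.44, adjusted p = 0.00126). Cd5 rose 7.56-fold into the Tox-high class (log2 fold change 2.92, SE 0.09, adjusted p = 5.12e-22) and fell by 1.43 (SE 0.15) into mature cells (adjusted p = 1.07e-08), in 8 of 8 samples and without overlap at both steps. The base of that rise is low, and its thinned share in Rag-high cells lay within the range of B cells. By CPM every Rag-high sample lay above every thymic B cell sum (0 to 76.5 CPM, median 15.3). The measures differ, and the size of the fold is uncertain. Mature cells kept a level above every Rag-high sample.

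Cd6, the neighbour and relative of Cd5, rose at each step up to the Tox-high class. It was at 24.4, 37.9, 46.1, 51.0 and 80.4 CPM in DN cells, 125 to 190 in cycling cells (median 147), 174 to 263 in Rag-high cells (median 209), 387 to 684 in Tox-high cells (median 565) and 146 to 425 in mature cells (median 304). Cd6 rose 2.97-fold from DN to cycling cells (log2 fold change 1.57, SE 0.44, adjusted p = 0.00749, 5 of 5 samples), 1.49-fold into the Rag-high class (0.58, SE 0.11, adjusted p = 4.55e-05, 7 of 8 samples) and 2.41-fold into the Tox-high class (1.27, SE 0.08, adjusted p = 2.26e-15, 8 of 8 samples). It fell by 0.97 (SE 0.16) into mature cells (adjusted p = 8.95e-06, 8 of 8 samples). The DN sums held only 1 to 7 UMIs of Cd6 each, and its thinned share there was at the background, so the size of the first step is uncertain. With looser marker thresholds that step was not called (0.39, adjusted p = 0.549).

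**Figure D2:**
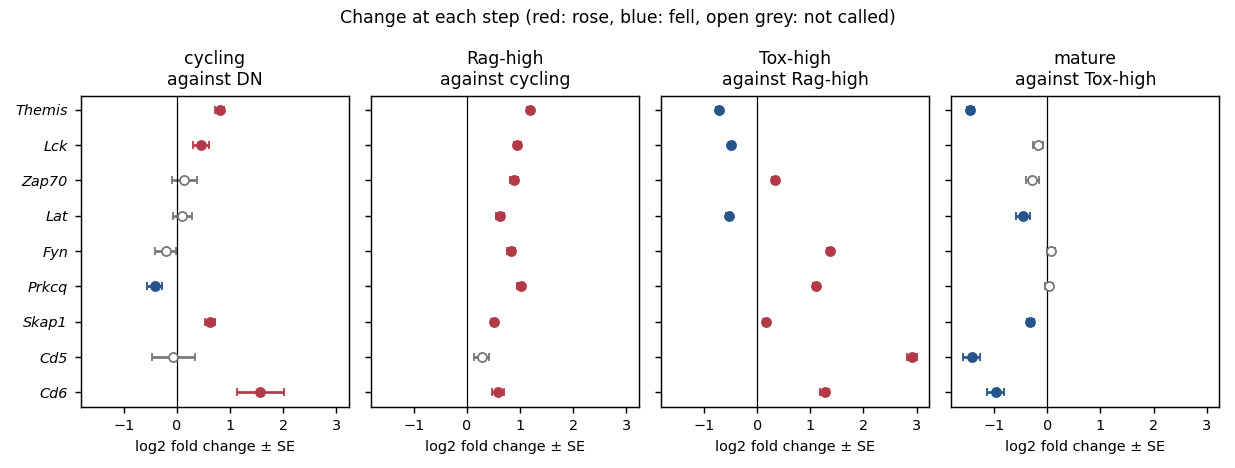
Change of each gene at the 4 steps, as log2 fold change with its SE from edgeR's quasi-likelihood fit (filled red rose, filled blue fell, open grey not called). Cd5 stands out at the Tox-high step at 2.92, and Themis is on the left of 0 at both of the last steps.

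The count of called genes was read against all genes tested, of which 8986 entered each step. From DN to cycling cells 5 of the 9 were called, 4 of them higher (Themis, Lck, Skap1 and Cd6) and Prkcq lower, where 25.1% of all genes were called (15.3% higher and 9.8% lower). The median of the 9 was a log2 fold change of 0.14 and that of all genes 0.15. This step rested on the 111 DN cells in the 5 sums. Lck and Prkcq lost their calls in 9 and 11 of 23 alternatives, Lck among them without WT 2 (adjusted p = 0.056) or WT 3 (0.164) and Prkcq among them without WT 3 (0.0602), WT 4 (0.155), Mini 1-A (0.109), Mini 1-B (0.0565) or Mini 2-A (0.0837). From cycling to Rag-high cells 8 of 9 were called, all higher, where 63.6% of all genes were called, 32.6% higher and 30.9% lower. The median of the 9 was a log2 fold change of 0.83 and that of all genes 0.03. From Rag-high to Tox-high cells all 9 were called, 6 higher and 3 lower (Themis, Lck and Lat), where 42.5% of all genes were called, 20.5% higher and 22% lower. From Tox-high to mature cells 5 were called, all lower (Themis, Cd5, Cd6, Lat and Skap1), where 24.5% of all genes were called, 10.6% higher and 13.8% lower, and the medians were -0.32 for the 9 and -0.13 for all genes. Fold changes were scaled by TMM, and scaling by total UMIs alone shifted them by -0.18, -0.05, 0.07 and 0.10 at the 4 steps in order.

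These p-values treat lobes as replicates and are too small for a claim over mice. With all lobes of a kit summed to 1 pool, so that 2 pools stood against 2 pools, the counts called at the 4 steps were 5, 9, 9 and 5 (Cd5 was added at the Rag-high step, 0.25, adjusted p = 0.0181), where 2342, 6084, 3699 and 2093 of 11600 genes were called. Wells of the first barcoding round that held the same tissue sample were also compared. The highest of a sample's wells was at the median 1.13 times the lowest for Themis in Rag-high cells, 1.23 times for Cd5 in Tox-high cells and 1.14 times for Prkcq in Tox-high cells. Lat varied more, at a median of 1.41 times in Rag-high cells (up to 2.01) and 1.46 times in Tox-high cells (up to 2.29). Its called change between these classes was a fall by 0.52 on the log2 scale. Both classes of a sample share its wells, so this spread does not measure the error of that change. Within each well compared, Lat was lower in Tox-high than in Rag-high cells. In Mini 1-A it went from 376 to 304 CPM in well A1, 299 to 258 in A2 and 600 to 401 in A3. In cycling cells the median was 1.49 times for Cd5 (up to 5.71) and for Cd6 (up to 3.39).

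The rise of Cd5 and Cd6 differed between the kits. In Tox-high cells Cd5 was at 1137, 695, 756 and 759 CPM in WT 1 to WT 4 and at 1034, 1023, 949 and 1014 CPM in Mini 1-A, 1-B, 2-A and 2-B, and Cd6 was at 636, 387, 467 and 444 CPM in the WT samples and at 684, 615, 533 and 597 CPM in the Mini samples. WT 1 lay above all Mini samples for Cd5 and among them for Cd6, and the other WT samples lay below them. In Rag-high cells the Cd6 levels were 206 to 263 CPM in WT and 174 to 212 CPM in Mini samples. The log2 rise into the Tox-high class was smaller in WT than in Mini by 0.65 for Cd6 (test of the interaction, adjusted p = 3.13e-05) and by 0.56 for Cd5 (adjusted p = 0.038), and 7 of the 8986 genes passed this test. For Cd5 the difference stayed negative but missed the threshold in 11 of 18 alternatives, among them those without WT 2, WT 3, WT 4, Mini 1-B, Mini 2-A or Mini 2-B. For Cd6 it did so in 1 of 18, with looser thresholds (adjusted p = 0.314). No other member passed this test at any step, which does not show that the kits were alike. The lowest adjusted p among them was 0.453, for Prkcq from cycling to Rag-high cells (WT minus Mini -0.38). The kits were run on different mice, so kit, mouse and run cannot be told apart.

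**Figure D3:**
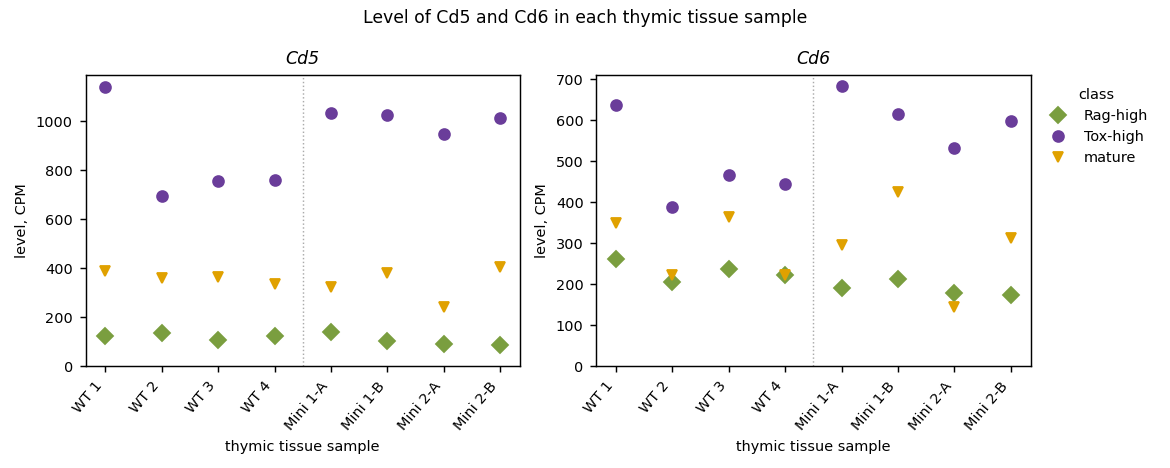
Level of Cd5 and Cd6 in CPM in each thymic tissue sample, by class (diamonds Rag-high, circles Tox-high, triangles mature), with the Parse WT samples left of the dotted line. In Tox-high cells WT 2, WT 3 and WT 4 lie below all 4 Mini samples for both genes.

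Among mature thymocytes, cells with Cd4 but no Cd8 UMIs and cells with Cd8 but no Cd4 UMIs could be compared within WT 2, WT 3 and WT 4, the only samples with at least 10 cells of each. Cd5 was at 724, 402 and 606 CPM in the CD4 cells of these samples and at 204, 199 and 188 CPM in their CD8 cells. The groups did not overlap, and Cd5 was lower in CD8 cells by 1.39 (log2, SE 0.37, adjusted p = 0.00727). It was the only one of 7 tested genes called, where 5.15% of 718 genes were called (2.65% higher and 2.51% lower in CD8 cells). The CD4 sums held 12, 27 and 20 cells and the CD8 sums 16, 19 and 31. The call was lost without WT 2 (-1.30, adjusted p = 0.113), WT 4 (-1.30, adjusted p = 0.196) or WT 3 (-1.60, adjusted p = 0.613, where 0 genes were called), and by DESeq2, which called 2 of all genes (-1.42, adjusted p = 0.981), while the size stayed similar. Themis was at 2276, 1146 and 1017 CPM in CD4 and 1979, 2033 and 1689 CPM in CD8 cells and was not called (0.59, SE 0.21, adjusted p = 0.0749), but without WT 2 it was (0.85, adjusted p = 0.00585). Zap70 and Lat did not pass the filter on low counts and were not tested in the main fit.

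The 16 other samples held 3537 cells that met the mature rule, and 15 samples had at least 10. These samples had at most 0.217% Rag-high cells, against 13.1% to 25.5% in the thymic samples. In the mature-rule T cells of the other samples, the medians of Themis and Zap70 lay below the lowest mature thymic sample (1278 and 172 CPM), and those of the other genes lay in the range of mature thymocytes. Themis was at 516 to 1621 CPM (median 1185), Lck at 237 to 661 (median 477), Zap70 at 83.9 to 279 (median 160), Lat at 136 to 366 (median 200), Fyn at 610 to 1512 (median 1056), Prkcq at 610 to 1707 (median 1335), Skap1 at 1424 to 3594 (median 2796), Cd5 at 168 to 389 (median 290) and Cd6 at 105 to 587 (median 189). Their Themis was in every sample below the lowest Tox-high thymic sample, and their Cd5 was below it too, while their Fyn and Prkcq medians lay in the range of the mature thymocytes. The medians of Themis, Zap70, Prkcq, Skap1, Cd5 and Cd6 were below those of mature thymocytes and those of Lck, Lat and Fyn above them, a description without a test.

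In 12 of these samples both coreceptor groups had at least 10 cells. Cd5 was lower in CD8 than in CD4 cells in 12 of 12, by 0.38 to 1.78 on the log2(CPM + 1) scale (median difference -0.65). Skap1 was lower in CD8 cells in 11 of 12 (median difference -0.33) and Lck higher in 11 of 12 (median difference 0.15). Themis was higher in CD8 cells in 10 of 12 (median difference 0.12), and Fyn in 3 of 12 (median difference -0.20). In the 3 thymic samples Cd5, Skap1, Prkcq and Lat were lower in CD8 cells in 3 of 3, but in the 12 other samples Prkcq and Lat were each higher in CD8 cells in 5. Cd6 was higher in CD8 cells in 2 of 12 other samples and in 2 of 3 thymic ones.

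**Figure D4:**
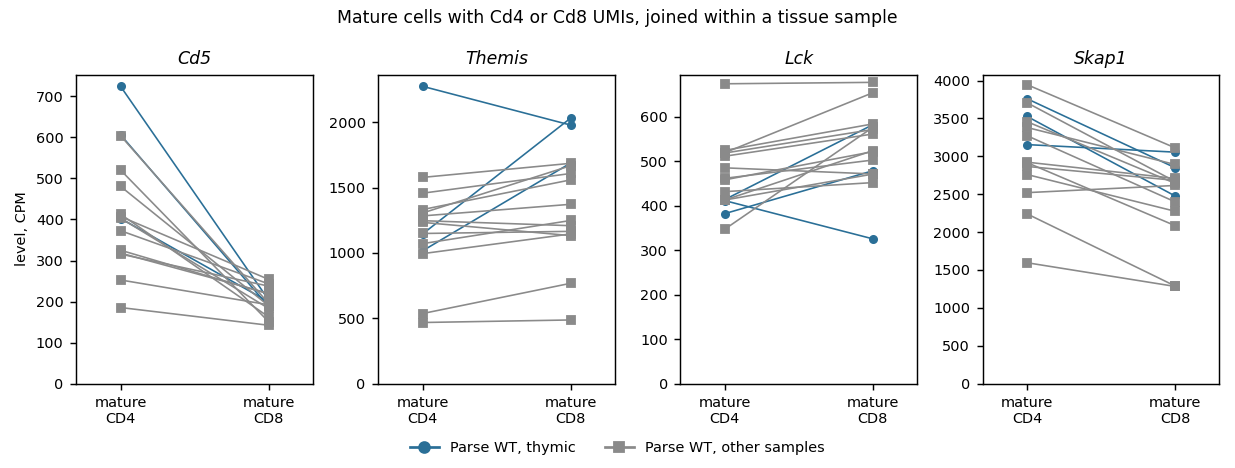
Level in CPM of Cd5, Themis, Lck and Skap1 in mature cells with Cd4 or with Cd8 UMIs, joined within a tissue sample (circles 3 thymic Parse WT samples, squares 12 other Parse WT samples). Every Cd5 line goes down towards the CD8 cells.

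Shares of cells with a UMI were compared at a fixed total depth. The 1000 UMIs kept per cell include ribosomal RNA, which CPM leaves out, and cells under 1000 UMIs were dropped. With each cell thinned to 1000 UMIs, Themis was seen in 97.8% to 99.8% of Rag-high cells (median of samples 99.2%), in 89.5% of Tox-high and 69.3% of mature cells. Without thinning these medians were 99.8%, 95.3% and 86.4%. Cd5 was seen in 8.2% of Rag-high, 45.4% of Tox-high and 20.0% of mature cells when thinned, and in 16.2%, 58.4% and 36.3% otherwise. Fyn went from 25.4% of Rag-high to 48.2% of Tox-high and 52.9% of mature cells when thinned. B cells were found by at least 4 UMIs of Cd79a, Cd79b, Ms4a1, Ighm, Bank1, Pax5 and Ebf1 together. They had none of the T cell genes Cd3d, Cd3e, Cd3g and Bcl11b and were taken as the background. Whether some of them express Cd5 was not tested. The median cell of this class held 964 to 5265 UMIs over the thymic samples. Their thinned shares had medians of 20.0% for Themis and Skap1, 17.6% for Fyn, which B cells also use, 6.2% for Prkcq, 4.7% for Cd5, 3.3% for Lck, 2.4% for Lat and 0% for Zap70 and Cd6. For Fyn the B cells were not taken as background, since B cells also use this kinase. Their median of 367 CPM lay above the Fyn medians of DN, cycling and Rag-high cells (241, 188 and 357 CPM). How much of it is RNA carried over from other cells was not tested. The Cd6 share in DN cells (0%) was not above the background and is read as background. The Cd5 shares in DN (7.1%), cycling (7.1%) and Rag-high cells (8.2%) lay within the B cell range of 0% to 10%. Those of Tox-high and mature cells lay above it. This range rests on few B cells, down to 10 thinned cells in Mini 2-A. Thinning kept 85 of 173 B cells in WT 1 and 28 of 57 in WT 2, so shares and CPM rest on different cells. By CPM, Cd5 in every Rag-high sample (86.4 to 140) lay above every thymic B cell sum (0 to 76.5). The DN and cycling levels, from 48.7 and 75.4 CPM upwards, overlapped with the B cell sums. In the other samples the B cell medians were 4.1% for Themis and 5.2% for Skap1.

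Levels can be set between genes only per length, and the order depended on which length was used. Per kilobase of the gene with its introns, Lat in its highest class stood at 59.5 CPM, Cd5 at 44.8, Themis at 32.1 and Lck at 27.2. Skap1 was at rank 6 with 12.9, and Fyn was lowest at 4.81 CPM per kilobase. Per kilobase of its exons joined, Themis was highest at 591 CPM and Skap1 next at 508, and Cd6 was lowest at 70.9.

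Over the 37 sums of tissue sample and class, Fyn and Prkcq had the most similar courses among the 9 (Pearson's r = 0.96 of log2(CPM + 1)), followed by Cd5 and Fyn (0.86) and Cd6 and Skap1 (0.84). For Fyn and Themis r was -0.16. The sums share libraries and classes, so these are descriptions. Among 6680 genes with a mean of at least 20 CPM, the gene most like Themis was Plcl1 (r = 0.94), that most like Cd5 was Lef1, a transcription factor of early and naive T cells (0.93), and that most like Prkcq was Tnik (0.97). Slco3a1 was most like Lck (0.87), Ube2h most like Zap70 (0.89), Cd28, the costimulatory receptor, most like Skap1 (0.90), Dgkd most like Cd6 (0.88) and Hectd4 most like Lat (0.82).

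Other genes of the pathway were taken as a list of 48 receptors, enzymes, adaptors and negative regulators. Of these, 6 coreceptor and CD3 genes are used by the class rules and are left out of the counts, and 40 of the remaining 42 were tested. From DN to cycling cells 8 rose and 10 fell, where 15.3% of all genes rose and 9.8% fell. With Parse Mini alone 3 rose and 4 fell, where 573 of 7952 genes rose and 350 fell. Sh2d1a (SAP) rose most (log2 fold change 1.98, SE 0.39, adjusted p = 1.27e-05), though not in cells thinned to 1000 UMIs (1.17, adjusted p = 0.176), then Rasgrp1, an activator of Ras (1.37, SE 0.16, adjusted p = 1.30e-12). Pik3cd, the PI3-kinase delta subunit (-2.33, SE 0.19, adjusted p = 1.83e-22), and the ubiquitin ligase Cblb (-2.02, SE 0.13, adjusted p = 1.82e-32) fell most. From cycling to Rag-high cells 27 rose, led by the kinase genes Txk (1.70, SE 0.07, adjusted p = 1.15e-55) and Dgka (1.66, SE 0.07, adjusted p = 2.22e-57), and only Pik3cd fell (-0.50, SE 0.12, adjusted p = 7.21e-05), a call lost with Parse Mini alone (-0.35, adjusted p = 0.142). Of the 12 enzymes 10 rose at this step, where 32.6% of all genes rose. The enzyme role was not sorted by whether a gene raises or dampens the signal.

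From Rag-high to Tox-high cells 18 of the 42 rose and 10 fell, where 20.5% of all genes rose and 22% fell. The adaptor Sh3bp2 (3.59, SE 0.15, adjusted p = 9.85e-53) and the adhesion receptor Cd2 (3.01, SE 0.09, adjusted p = 3.46e-73) had larger values than Cd5 (2.92). The inhibitory adaptor Sla2 (-1.17, SE 0.06, adjusted p = 1.54e-45) and the kinase Tec (-0.54, SE 0.09, adjusted p = 1.86e-07) fell most. Of 13 negative regulators 6 rose and 4 fell. From Tox-high to mature cells 10 rose and 16 fell, where 10.6% of all genes rose and 13.8% fell. Pik3cd (1.91, SE 0.11, adjusted p = 5.00e-36) and Cblb (1.46, SE 0.08, adjusted p = 6.63e-39) rose most, and Sh3bp2 (-2.69, SE 0.40, adjusted p = 4.00e-09) and Sh2d1a (-1.69, SE 0.20, adjusted p = 1.07e-12) fell most. The medians of the tested genes were 0.07, 0.60, 0.06 and -0.15 at the 4 steps. The whole list of 48 would have led with Cd8b1 and Cd4 at the first step (4.24 and 3.29) and at the third (-1.27 and -1.19). Their UMIs enter the DN and Rag-high rules but not the cycling and Tox-high ones, and the part of the rules in these values was not tested. Between mature CD8 and CD4 cells, 2 of the 42 were called, both higher in CD8 cells, 21 were not called and 19 were not tested, where 5.15% of all genes were called and 2.65% were higher. Among the called genes was the adaptor Grap2 (0.70, SE 0.18, adjusted p = 0.00477), whose call was lost under DESeq2 (0.70, adjusted p = 0.979), without WT 3 (0.76, adjusted p = 0.613) and without WT 4 (0.68, adjusted p = 0.0709) at a similar size.

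**Figure D5:**
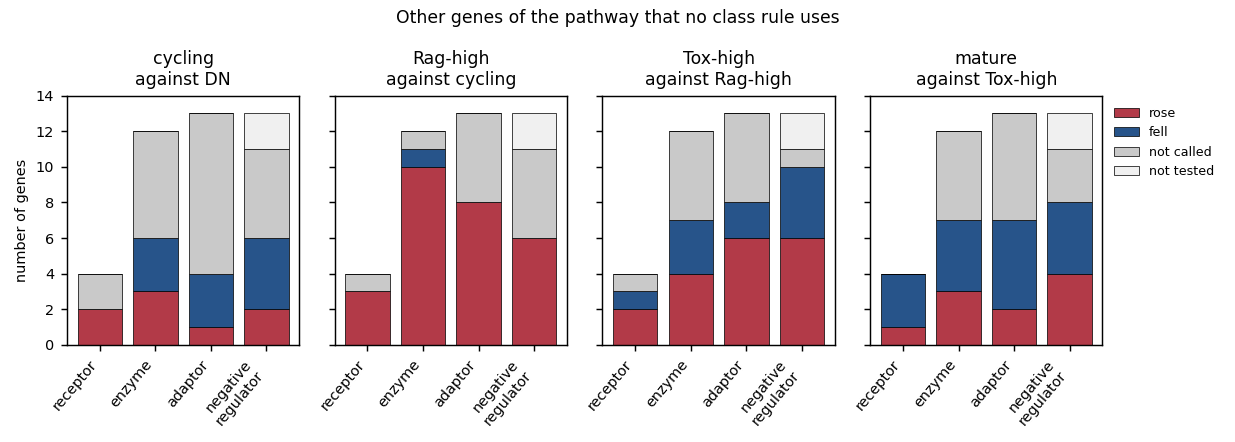
Number of other pathway genes that rose, fell, were not called or were not tested at each step, by role (receptors, enzymes, adaptors and negative regulators), without the 6 genes that the class rules use. Most enzymes rise into the Rag-high class, and all roles split at the Tox-high step.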

How the data were processed

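The authors aligned the Parse reads to mm10 with the split-pipe pipeline and deposited whole-number UMI counts per cell and gene with a table of cells. Neither the pipeline's version nor its Ensembl annotation is named in the sources read. Of each cell table, 7 columns were left aside. Tissue samples came from the names in the cell tables: the 4 Mini samples, and the 4 WT samples whose names mark them as also run with 10x, which the study describes as thymic lobes. Barcodes were not repeated within a kit, and 460 occurred in both kits as written. The study called doublets in both Parse libraries, at a higher share in WT than in Mini, and removed them. No doublet caller was run here. The upper UMI limit and the rules against conflicting markers may have removed some mixed cells, which was not measured. The 3 ribosomal RNA genes were left out of all sums.

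UMI counts summed per tissue sample and class were tested with edgeR 4.0.16 in R 4.3.3 (quasi-likelihood, TMM, filterByExpr, robust), with the 5 classes in 1 fit and Benjamini-Hochberg adjustment over all genes tested; a gene was called at an adjusted p under 0.05. The tissue sample was the block, since all classes of a sample come from the same lobe. DESeq2 1.42.0 and the other alternatives are in the closing section. Per pathway comparison, the 2 genes with the largest rise and the 2 with the largest fall among those called are named; a few marker and pathway genes are not reported here. Members, class markers and lists were chosen with earlier results of these data known.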

Additional observations from a re-analysis of the deposited data

Results flagged for a closer look

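Each of the 72 groups of 4 samples (a gene in a class and kit) was searched for 1 sample far from the other 3, and 4 were found, where chance gives about 1 in 20 groups. In Tox-high cells Cd5 was at 1137 CPM in WT 1 and at 695 to 759 CPM in the other WT samples. In cycling cells Lck was at 507 CPM in Mini 2-B and at 363 to 383 CPM in the other Mini samples. Zap70 in Mini 2-B was at 290 CPM in Tox-high cells, against 231 to 236 CPM in the others, and at 172 CPM in mature cells, against 243 to 247 CPM.

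The rise from Rag-high to Tox-high cells differed between the kits for Cd5 (WT minus Mini log2 fold change -0.56, adjusted p = 0.038 in edgeR's interaction test) and Cd6 (-0.65, adjusted p = 3.13e-05). Without WT 1, the Cd5 difference was -0.70 (adjusted p = 2.17e-06). Leaving out 1 sample at a time gave -0.70 to -0.44, and the Cd5 difference missed the threshold in 11 of the alternatives.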

How the results depend on the processing

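Of 641 values of called members under the alternatives, 607 kept direction and call, 34 lost the call and 0 reversed. Of the values of members not called, 272 stayed so, 47 changed sign and 15 passed the threshold. The causes were not tested. Changes of sign follow, as log2 fold changes, with the counts that moved. From DN to cycling cells, Cd5 was 0.50 with Mini alone, 0.075 with at most 10000 UMIs, 1.12 thinned, 1.87 by positive markers alone (added after the data were seen), 0.071 without a filter and 0.32 with strict thresholds. Fyn was 0.29 thinned and 0.41 by positive markers, Zap70 was -0.030 by library size alone, and Lat was -0.016 by DESeq2, -0.25 with Mini alone, -0.0073 by RLE, -0.072 by library size and -0.30 with loose thresholds. Members called were 3 with Mini alone, thinned or strict, and genes called were 923 with Mini alone and 1130 thinned. From cycling to Rag-high cells, Cd5 was -0.018 with Mini alone and -0.022 thinned, and genes called were 3265 thinned and 3718 loose. From Rag-high to Tox-high cells 2384 genes were called thinned. From Tox-high to mature cells, Fyn was -0.038 with WT alone, -0.043 thinned, -0.087 by positive markers, -0.13 loose and -0.060 without a filter. Prkcq was -0.022 without the 8 most abundant genes, -0.0063 with Mini alone, -0.015 at 10000 UMIs, -0.14 thinned, -0.13 by positive markers, -0.0029 loose and -0.098 without a filter. Genes called were 1253 with Mini alone, 1268 thinned and 1270 loose.

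Between mature CD8 and CD4 cells, Cd6 was -0.48 with 1 pool per kit, -0.29 by positive markers, -0.26 without the block and -0.67 strict, Fyn was -0.13 pooled, -0.091 without the block and -0.023 strict, and Prkcq was 0.27 loose and 0.072 strict. Members called were 0 by DESeq2, thinned, loose or without a filter, and genes called were 2, 4, 11 and 16 in that order and 91 strict. Leaving out each replicate gave -0.21 to 0.48 for Cd5 and -0.037 to 0.22 for Lat from DN to cycling cells, with 3 to 5 members called. It gave -0.026 to 0.16 for Fyn and -0.043 to 0.074 for Prkcq from Tox-high to mature cells. Between CD8 and CD4 cells it gave -0.34 to 1.08 for Cd6, -0.061 to 0.49 for Fyn, 0 to 1 members and 0 to 38 genes called. Without the replicate block, members called were 5, 9, 8, 5 and 1 over the 5 comparisons, and genes called were 2249, 5340, 3040, 2086 and 36. Of the 42 pathway genes, 7 in place of 18 were called from DN to cycling cells with Mini alone (13 to 18 leaving out a replicate). Between CD8 and CD4 cells 2 were called, 0 by DESeq2, loose, pooled or without a filter, 1 thinned, 4 without the block, 6 strict or by positive markers, and 0 to 2 leaving out a replicate. Mini alone gave no value for CD8 against CD4. No other sample had over 5% Rag-high cells, so none was left out. Depth limited the DN sums (111 cells) and the CD4 and CD8 sums, where Zap70 and Lat did not pass the low-count filter of the main fit.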
